A study of Mus musculus with 4 samples.

Results

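Described here are 7 genes of the 32285 listed in the single-cell RNA sequencing (scRNA-seq) files of mouse mammary tumors: S100g (ENSMUSG00000040808), Bpifb5 (ENSMUSG00000038572), Tnc (ENSMUSG00000028364), Igfbp3 (ENSMUSG00000020427), Ptgs2 (ENSMUSG00000032487), Scg3 (ENSMUSG00000032181) and Mucl1 (ENSMUSG00000060311). They were chosen by symbol from earlier results of these data, as genes for which both Cre+ libraries lay below both Cre- libraries in the summed epithelial cells. That order was thus what chose them, and it is described here without a test. Each of 4 libraries was labeled as a tumor replicate at 17 to 18 weeks and was taken here as 1 mouse. Cre- replicates 1 and 3 had the genotype MMTV-Cre-; Frmd8 fl/fl; PyMT. Cre+ replicates 2 and 4 had the genotype MMTV-Cre+; Frmd8 fl/fl; PyMT. All 4 mice thus carried the floxed Frmd8 alleles and the PyMT transgene, an oncogene driven by the MMTV promoter, which is active mainly in mammary epithelium. Cre was driven by the same promoter, so the deletion was aimed at the epithelium and not at the other cells of the tumor. Cells had been sorted by flow cytometry before capture, with no gate given in the sources used here.

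Barcodes with at least 1000 unique molecular identifiers (UMIs, each marking 1 captured RNA molecule) and at most 20% mitochondrial UMIs were kept. Every run of 4 values below gives the Cre- libraries first, replicate 1 before replicate 3, and then the Cre+ libraries, replicate 2 before replicate 4. The cells kept were 4922, 5918, 5609 and 7123, with a median of 13072.5, 12776, 12571 and 12455 UMIs. Any pair of libraries shared 6 to 16 barcodes. Epithelial cells, named from Epcam, keratins and claudins, were 2361, 2508, 2463 and 3093 of them, with summed markers of 5509 to 10318 counts per 1000000 UMIs (CPM). Cre+ replicate 4 had been deposited with every barcode and an older software version, and 1 of 17 epithelial clusters, with 482 cells, was found in that library alone. Frmd8, the targeted gene, was counted at 24.1, 24.4, 5.61 and 9.96 CPM in the epithelial cells. The assay reads the end of the transcript, which lies outside the floxed exons, so this level does not check the deletion itself. Both Cre+ libraries also lay below for Frmd8 in macrophages, monocytes, dendritic cells, T cells, natural killer cells, fibroblasts and endothelial cells. Mean levels in Cre- and Cre+ were 23.8 and 16.0 CPM in macrophages, and 17.7 and 13.9 CPM in fibroblasts. In T cells they were 54.5 and 28.2 CPM, and in endothelial cells 30.9 and 27.8 CPM. In B cells, granulocytes and pericytes the groups overlapped, and the cause was not tested. Of all genes tested, 17.8% had both Cre+ libraries below in macrophages, 22.4% in fibroblasts and 19% in endothelial cells. Over all non-epithelial cells, 22.6% had both below and 4.43% both above.

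Most of the 7 genes encode secreted or extracellular proteins. S100g encodes a calcium-binding protein whose expression in intestine responds to vitamin D, and Bpifb5 belongs to the family of secreted proteins with the lipid-binding fold of bactericidal/permeability-increasing protein. Tnc encodes tenascin-C, a matrix glycoprotein of developing, wounded and tumor stroma that binds integrins and syndecans. Igfbp3 encodes a carrier protein that binds insulin-like growth factors in the extracellular fluid. Ptgs2 encodes the inducible cyclooxygenase, which catalyzes the committed step of prostaglandin synthesis and is known for its induction in inflammation. Scg3 encodes a granin of secretory granules, and Mucl1 is a mucin-like gene known for expression in glandular epithelium.

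The sequences upstream of the genes whose Cre+ epithelial levels lay below the Cre- levels are shown, Mucl1 apart, since these genes share an order between the libraries. Each holds the 250 bases before the RefSeq start on GRCm38.p6, 5' to 3' on the gene's strand. Capitals mark a TATA box (TATAAA) or the GC box bound by SP1 (GGGCGG), read on both strands.
Bpifb5, chr2:154223492-154223741, plus strand: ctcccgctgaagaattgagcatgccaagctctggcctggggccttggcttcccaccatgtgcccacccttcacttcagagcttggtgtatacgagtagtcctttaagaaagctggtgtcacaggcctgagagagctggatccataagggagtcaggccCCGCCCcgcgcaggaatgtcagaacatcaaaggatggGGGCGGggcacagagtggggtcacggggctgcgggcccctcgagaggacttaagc
Tnc, chr4:64047016-64047265, minus strand: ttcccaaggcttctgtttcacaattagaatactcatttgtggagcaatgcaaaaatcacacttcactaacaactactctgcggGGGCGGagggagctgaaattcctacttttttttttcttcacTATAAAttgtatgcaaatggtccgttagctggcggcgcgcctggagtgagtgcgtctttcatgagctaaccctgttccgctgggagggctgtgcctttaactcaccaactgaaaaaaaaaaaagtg
Igfbp3, chr11:7213924-7214173, minus strand: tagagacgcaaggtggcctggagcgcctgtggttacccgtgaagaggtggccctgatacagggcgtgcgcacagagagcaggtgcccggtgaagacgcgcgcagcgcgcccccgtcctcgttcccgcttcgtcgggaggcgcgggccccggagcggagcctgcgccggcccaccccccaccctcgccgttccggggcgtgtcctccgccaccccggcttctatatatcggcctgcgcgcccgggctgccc
Ptgs2, chr1:150099781-150100030, plus strand: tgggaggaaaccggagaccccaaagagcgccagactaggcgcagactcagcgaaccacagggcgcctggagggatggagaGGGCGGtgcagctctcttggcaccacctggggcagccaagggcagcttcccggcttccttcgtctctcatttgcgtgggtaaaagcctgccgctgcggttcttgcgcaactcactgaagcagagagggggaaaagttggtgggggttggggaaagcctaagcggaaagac
RefSeq starts were found for 6 of the 7 genes, with 7 starts in all, as Tnc has a pair that lie close together (the upstream one is shown), and Mucl1 was not matched. The search also covered the AP-1 site (TGANTCA), the cyclic AMP response element (TGACGTCA), the FOXO site (GTAAACA) and the core repeat of the estrogen response element (GGTCA, not in capitals), and no motif contains another. GGGCGG or its complement stood upstream of Bpifb5 at 92 and 55 bases before the start, of Tnc at 167 and of Ptgs2 at 170, while 32.74% of 32851 mouse promoters of this length hold it. TATAAA stood 126 bases before the start of Tnc and is held by 12.37% of promoters. The window of Igfbp3 held none of the 6 motifs. GTAAACA was found only before S100g, 47 bases from its start, and GGTCA or its complement before S100g and Bpifb5, against 3.166% and 35.24% of promoters. None of the 6 motifs stood in all of the 4 windows shown. A match is a match of letters only.

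In the summed epithelial cells, 5 of the 7 genes (71.4%) had both Cre+ libraries below both Cre- libraries, and 15.3% of the 16485 genes tested in these cells did so. Nothing can be read from the difference, since the genes had been picked for this order. Bpifb5 was counted at 154, 74.7, 23.2 and 20.6 CPM. The Cre- libraries differed from each other by more than the Cre+ libraries did, and the mean was 5.23-fold lower in Cre+. Tnc was counted at 4.85, 6.22, 1.54 and 0.792 CPM, 4.74-fold lower in Cre+. Igfbp3 had levels of 25.3, 25.2, 13.6 and 7.70 CPM, 2.37-fold lower. Ptgs2 had levels of 24.9, 28.4, 11.5 and 4.27 CPM, 3.39-fold lower. For these 4 genes the lowest Cre- library was 1.86 to 3.22 times the highest Cre+ library, and for S100g and Scg3 it was 0.647 and 0.507 times.

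**Figure D1:**
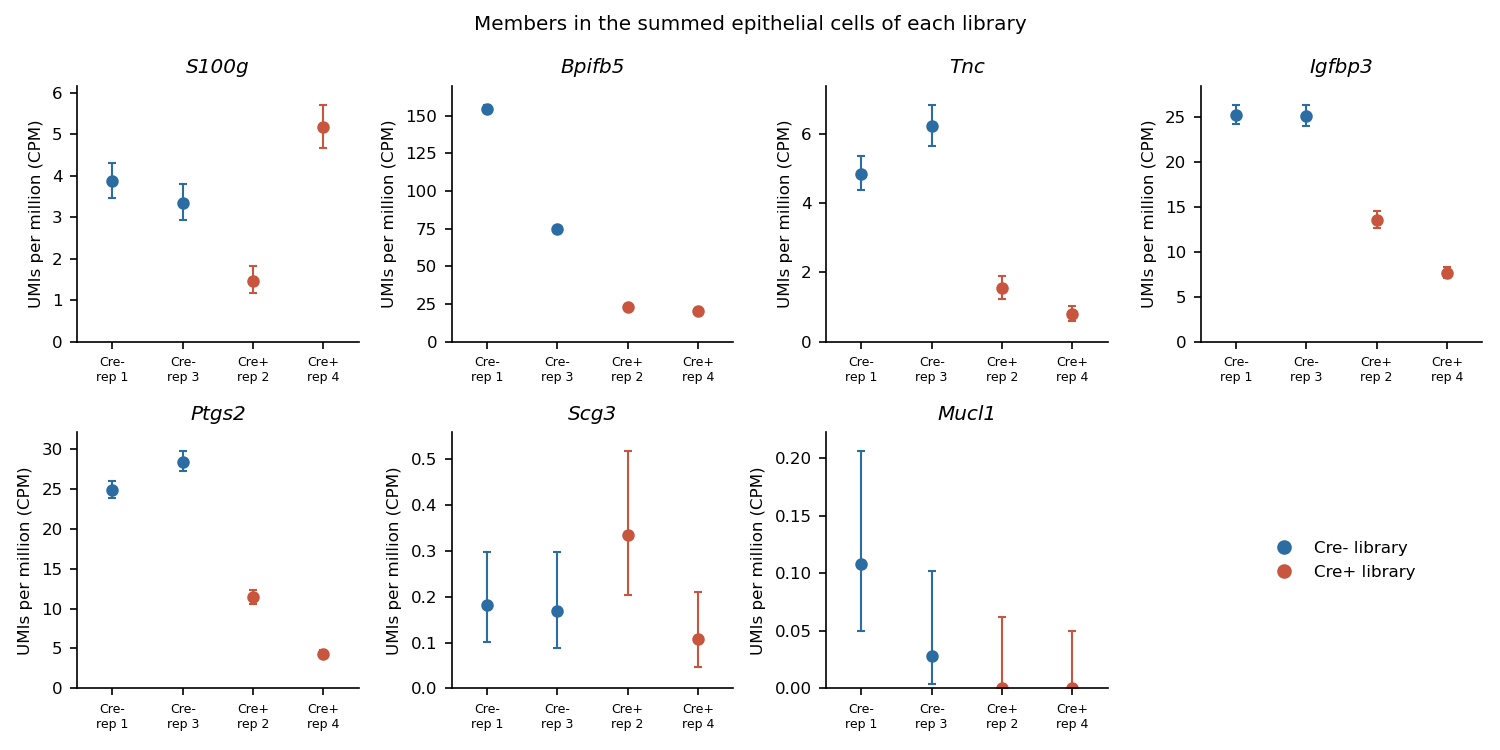
Each panel plots the level of 1 gene in the summed epithelial cells of each library, in CPM, with the exact Poisson 95% interval, which covers counting error only. Bpifb5, Tnc, Igfbp3 and Ptgs2 have both Cre+ points below both Cre- points, S100g and Scg3 overlap, and Mucl1 rests on 9 and 2 UMIs in the Cre- libraries.

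S100g and Scg3 did not keep the order for which they had been chosen. S100g was counted at 3.87, 3.34, 1.47 and 5.17 CPM, so that Cre+ replicate 2 was the lowest and Cre+ replicate 4 the highest library. Scg3 was counted at 15, 12, 20 and 8 UMIs in all epithelial cells, and the groups overlapped. Mucl1 was counted at 9, 2, 0 and 0 UMIs among 59684593 to 82892325 epithelial UMIs, so its order rests on 9 UMIs in 8 cells of Cre- replicate 1 and 2 UMIs in 2 cells of Cre- replicate 3. The limit that a count of 0 allows, 3 counts, is 0.0503 and 0.0402 CPM in the Cre+ libraries, and the value of Cre- replicate 3, 0.0283 CPM, lies below both.

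S100g was carried by very few cells. In the epithelium, 22, 8, 13 and 21 cells held all of its 321, 236, 88 and 385 UMIs, and 2, 1, 1 and 3 cells held at least 50% of them. The highest cell of Cre- replicate 3 held 133 UMIs, or 56.4% of that library's epithelial count. Every cell with at least 20 UMIs of S100g was epithelial except 1 of the macrophage class in Cre+ replicate 4 with 73 UMIs, which carried 7 of 10 epithelial markers and was called a doublet. In Cre+ replicate 4, 381 of the 385 UMIs lay in 1 cluster of 482 cells, named squamous-like from Krt6a, Krt16 and Asprv1, at 51.9 CPM. The other libraries had no cell in that cluster. Without it, S100g in Cre+ replicate 4 was at 0.0595 CPM, and both Cre+ libraries lay below both Cre- libraries, 4.70-fold lower on average. Leaving out any other of the 17 clusters did not give that order. Without the 10 cells with the most UMIs in each library, S100g was at 0.291, 0, 0.0506 and 0.229 CPM with overlapping groups, and without the top 1% of cells it was at 0 in every library. In the other libraries its UMIs were split over 3 clusters, given here for Cre- replicate 1, Cre- replicate 3 and then Cre+ replicate 2. The luminal progenitor-like cluster held 48.9%, 28.8% and 12.5%, the alveolar progenitor-like cluster 26.2%, 0% and 29.5%, and a cluster led by Foxq1, Krt17, Adm and Vegfa 22.7%, 56.4% and 52.3%. These shares were single cells in part. In the last cluster, 1 cell per library held 73 of 73, 133 of 133 and 44 of 46 UMIs, and in the luminal progenitor-like cluster of Cre- replicate 3, 1 cell held 67 of 68.

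Bpifb5 was an epithelial gene spread over many cells. Epithelial cells held 94.6% to 97.4% of its UMIs in each library. A UMI was found in 662, 705, 253 and 250 epithelial cells, and 57, 84, 23 and 17 of these held at least 50% of the count. With the 1% of cells holding the most UMIs removed from each library, the levels were 112, 59.3, 11.6 and 7.70 CPM, and the difference was 8.86-fold. With 5% removed it was 20.5-fold. Each cut took the same share of all epithelial cells in every library, and so a larger share of the fewer Cre+ carriers. The growth of the fold is therefore no measure of the difference. With each cell thinned to 1000 UMIs, 6.65%, 4.94%, 0.568% and 1.03% of the epithelial cells held a UMI of Bpifb5, while none of 136, 192, 133 and 138 T cells did, which allows shares of up to 1.90% to 2.74% (exact binomial 95% limits, counting error only). The Cre- shares of epithelial cells lay above these limits and the Cre+ shares within them. Before thinning, the shares were 28.0%, 28.1%, 10.3% and 8.08%, with median depths of 23899, 17400, 13348 and 13387 UMIs in epithelial and of 5305, 5450, 5976 and 7440 UMIs in T cells. T cells held 0 to 53 Bpifb5 UMIs per library before thinning, so they are not a blank for this gene. Leaving out each of the 17 epithelial clusters in turn left both Cre+ libraries below both Cre- libraries every time, with a fold of 4.46 to 5.84.

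The values of Bpifb5 within clusters are parts of the sums that had chosen the gene, so they are a description only. The share of all genes with the same order within clusters was not computed. The alveolar progenitor-like cluster expressed the milk genes Wap and Lalba. Bpifb5 was at 172 and 59.9 CPM there in the Cre- libraries against 19.1 CPM in Cre+ replicate 2. In a deep cycling-like cluster Bpifb5 was at 404 and 92.4 CPM in the Cre- libraries and at 79.8 CPM in Cre+ replicate 2. Cre+ replicate 4 had too few cells in both to be compared, and its levels there were high. They were 308 CPM (131 UMIs in 9 cells) and 351 CPM (19 UMIs in 2 cells). In Cre- replicate 3, 3466 of its 5273 UMIs lay in an unnamed cluster led by Spp1 (84.9 CPM), and in Cre+ replicate 4, 928 of 1539 lay in an unnamed cluster led by Scgb1b27 (22.0 CPM). Each of these clusters was made up almost wholly by that library, so they allow no comparison. Of the 9 clusters with at least 20 cells in a library of each genotype, the Cre+ values lay below in 6, above in 0 and overlapped in 3. In 5 of the 6 the Cre+ value came from Cre+ replicate 2 alone, and 1 of these had a single Cre- library too. The other of the 6, a cycling-like cluster, had 163, 26.4, 15.3 and 17.9 CPM. There, and in the deep cycling-like cluster, the nearest Cre- and Cre+ libraries had overlapping counting intervals. In a basal-like cluster of the 6, the nearest values rested on 2 UMIs in Cre- replicate 1 and 1 UMI in Cre+ replicate 2. The count of 6 is therefore not 6 clear differences. All 3 that overlapped held both Cre+ libraries. Among them, the shallow cluster led by Cd74, Lyz2 and C1qa had 80.7, 22.3, 23.3 and 87.7 CPM.

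**Figure D2:**
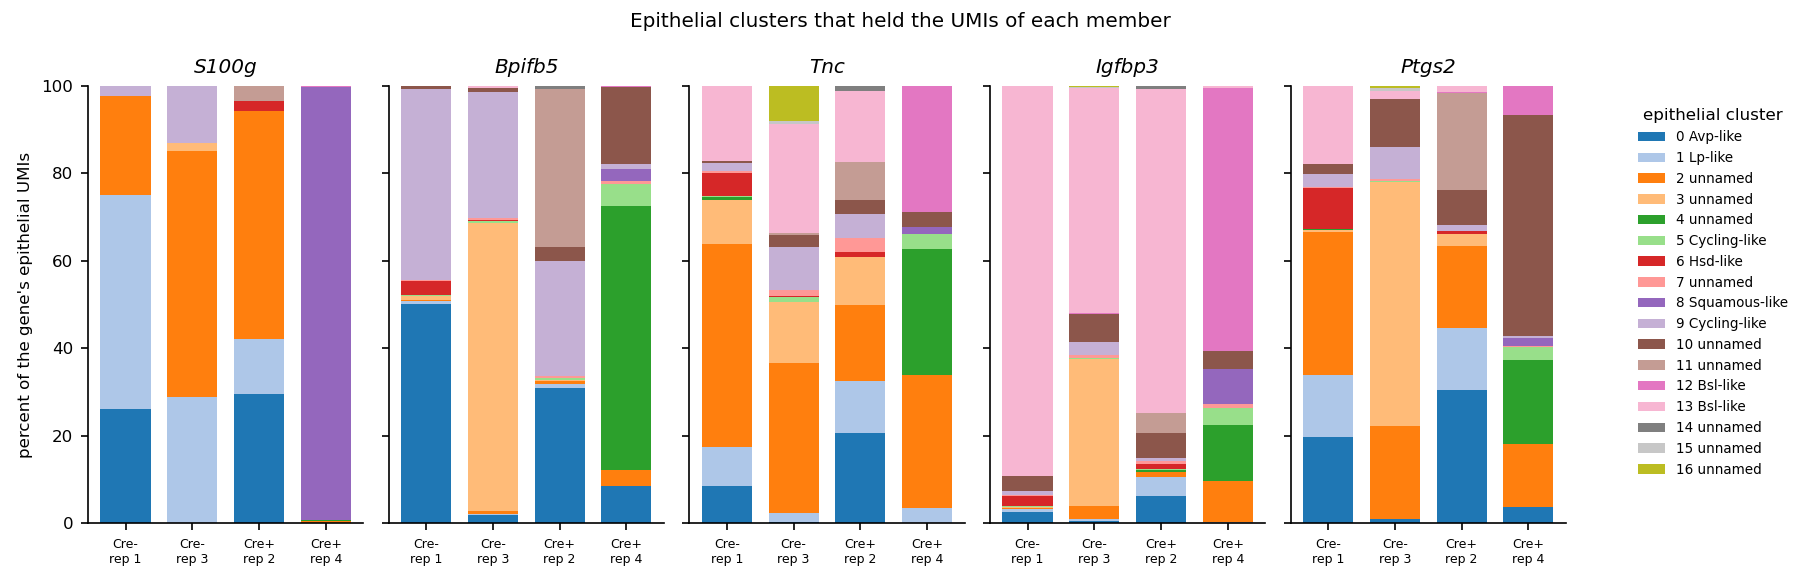
Stacked bars give the percentage of a gene's epithelial UMIs held by each of 17 epithelial clusters, 1 bar per library, for the 5 genes with the most epithelial UMIs. The clusters that hold a gene differ between libraries, with S100g of Cre+ replicate 4 in the squamous-like cluster 8 (381 of 385 UMIs) and Igfbp3 of Cre- replicate 1 in the basal-like cluster 13 (89.2%).

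Ptgs2 was carried by 245, 395, 163 and 112 epithelial cells, of which 18, 31, 14 and 12 held at least 50% of its UMIs. Without the 1% of cells with the most UMIs, it was at 10.9, 15.9, 3.80 and 1.24 CPM, a 5.32-fold difference, and without 5% at 1.89, 5.82, 0.753 and 0 CPM. These cuts took a larger share of the carriers in the Cre+ libraries, where carriers were fewer. The larger cut took every carrier of Cre+ replicate 4. After thinning, 1.95%, 3.11%, 0.853% and 0.420% of epithelial cells held a UMI, against 0%, 0.521%, 0.752% and 0.725% of T cells. The T cells allow shares of up to 2.68%, 2.87%, 4.12% and 3.97% (exact binomial 95% limits), which the epithelial share exceeded in Cre- replicate 3 alone. T cells held 3 to 12 Ptgs2 UMIs per library before thinning, so they are not a blank for this gene. In the cluster led by Foxq1, Krt17, Adm and Vegfa, Ptgs2 was at 355, 88.1, 98.7 and 4.03 CPM, and the groups overlapped. In a shallow cluster led by Cd74, Lyz2 and C1qa, genes of macrophages, it was at 45.3, 106, 29.97 and 52.5 CPM, and the groups overlapped too. The order of the whole sums held without each of the 17 clusters (2.76- to 3.88-fold). The empty droplets of Cre+ replicate 4 held it at 38.9 CPM, above the 4.27 CPM of the epithelial cells. In that library, 161 of its 318 epithelial UMIs, or 50.6%, came from the 78 cells of that shallow cluster.

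Tnc was a minor gene of the epithelium, with 402, 439, 92 and 59 UMIs in 101, 166, 48 and 41 cells. With the 10 cells holding the most UMIs removed from each library, 179, 223, 38 and 31 UMIs were left. Tnc was then at 2.17, 3.18, 0.647 and 0.418 CPM, still below in both Cre+ libraries. Without the 1% of cells with the most UMIs, its levels were 1.24, 2.27, 0.393 and 0.137 CPM, and both Cre+ libraries stayed below. Without 5%, a cut that took every carrier of the other libraries, it was at 0 in all but Cre- replicate 3. After thinning, 0.678%, 1.44%, 0.284% and 0.129% of the epithelial cells and 1, 0, 0 and 0 T cells held a UMI. In the cluster led by Foxq1, Krt17, Adm and Vegfa, Tnc was at 98.3, 31.4, 12.4 and 1.58 CPM, and both Cre+ libraries lay below. In the basal-like cluster 13 it was at 39.9 and 83.5 CPM in the Cre- libraries against 13.3 CPM in Cre+ replicate 2, and the fibroblast markers of these cells summed to as much as or more than their epithelial markers, with values given under Igfbp3. The other basal-like cluster, with 269 cells of Cre+ replicate 4, had 3.05 CPM. A shallow cluster of 52 cells, found in Cre- replicate 3 alone, had 215 CPM. Leaving out each cluster gave a fold of 3.60 to 7.85.

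Igfbp3 lay mostly in few cells of the clusters named basal-like. It was found in 173, 289, 179 and 265 cells, and 6, 13, 5 and 30 of these held at least 50% of its UMIs. A single cell held 401 UMIs, or 19.1%, in Cre- replicate 1 and another 223 UMIs, or 27.6%, in Cre+ replicate 2. The basal-like cluster 13, with 74, 73, 61 and 2 cells, held 89.2%, 51.5% and 74.0% of the epithelial UMIs of Igfbp3 in all libraries but Cre+ replicate 4, at 1080, 695 and 532 CPM. In Cre+ replicate 4, 60.1% lay in another basal-like cluster of 269 cells, at 61.8 CPM. In Cre- replicate 3, 33.6% lay in the unnamed cluster led by Spp1, at 14.6 CPM. Without cluster 13 the levels were 2.78, 12.4, 3.59 and 7.66 CPM and the groups overlapped. They also overlapped without the 5% of cells with the most UMIs, at 0.719, 2.53, 1.01 and 1.57 CPM, and in the thinned shares, at 1.61%, 3.11%, 1.34% and 1.68%, with 0.735%, 2.08%, 0% and 2.17% in T cells. In the empty droplets of Cre+ replicate 4, Igfbp3 was at 73.1 CPM, above the 7.70 CPM of its epithelial cells, and the part of free RNA was not tested.

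The cells of cluster 13 carried all 10 basal markers, led by Tagln and Acta2, but their 10 epithelial markers summed to 819 to 1119 CPM, against 5596 to 10521 CPM in the epithelial cells outside the basal-like clusters. Their 8 fibroblast markers summed to 3076, 1129 and 3074 CPM in the same libraries, against 32.7 to 115 CPM in those other cells. In the other basal-like cluster, in Cre+ replicate 4, the epithelial markers summed to 5306 CPM and the fibroblast markers to 1781 CPM. Without integration of the libraries, 200 of the 210 cells of cluster 13 fell in a cluster named macrophage-like. Of the 275 cells of the other basal-like cluster, 272 were then unnamed, so both left the epithelial class. Epithelial Igfbp3 was then at 1.94, 10.9, 2.92 and 3.64 CPM with overlapping groups. Under the limits read from the study (200 to 5000 genes and fewer than 30000 UMIs per cell), it was at 3.70, 24.8, 5.40 and 28.4 CPM, with Cre+ replicate 4 the highest library. The study words its limits as those of cells left out, and they were read here as those of cells kept. In Cre+ replicate 4 they were applied to every deposited barcode, so the cells need not be those of the study. These limits set no UMI minimum, and the epithelial class then held 1392, 1460, 1751 and 7244 barcodes. In Cre+ replicate 4, 4695 of them lay in an unnamed cluster led by Hbb-bs and Scgb1b27, and their part in the result was not tested.

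**Figure D3:**
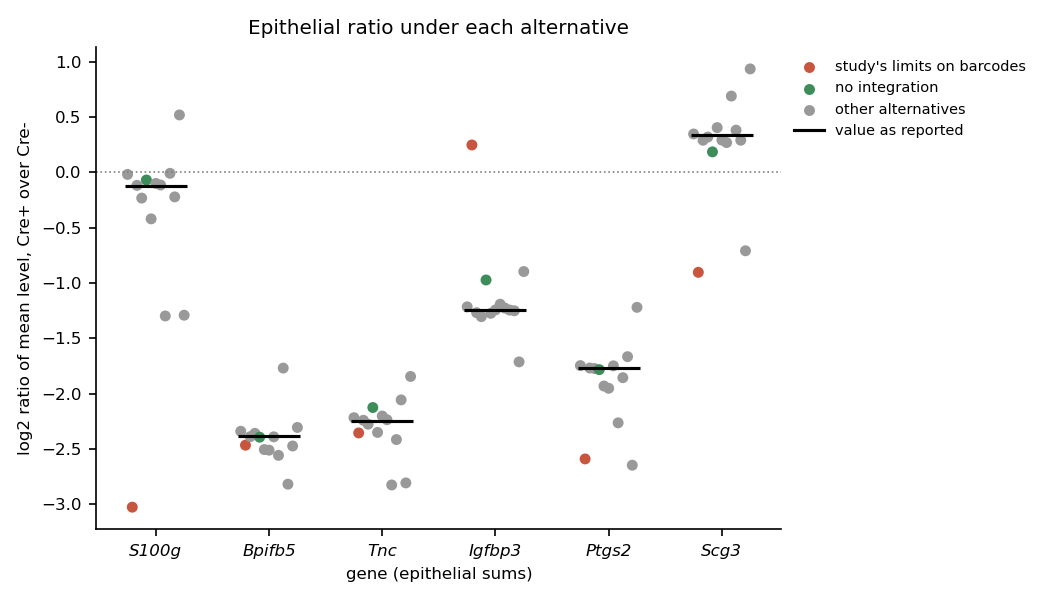
Each point gives the log2 ratio of the mean epithelial level in Cre+ over Cre- for 1 gene under 1 alternative, and the line gives the value as reported. Bpifb5, Tnc and Ptgs2 stay below -1 throughout, and the points of S100g and Scg3 fall on both sides of 0. Igfbp3 is at 0.25 under the limits read from the study, which set no UMI minimum and let in more barcodes of Cre+ replicate 4.

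For 5 of the 7 genes the named cell class with the highest mean level lay outside the epithelium. Among the named classes, S100g and Bpifb5 were highest in epithelial cells. Tnc and Scg3 were highest in fibroblasts, Igfbp3 in endothelial cells, Ptgs2 in granulocytes and Mucl1 in the class named monocytes. The same classes were the highest with a stricter call of cells in Cre+ replicate 4.

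**Figure D4:**
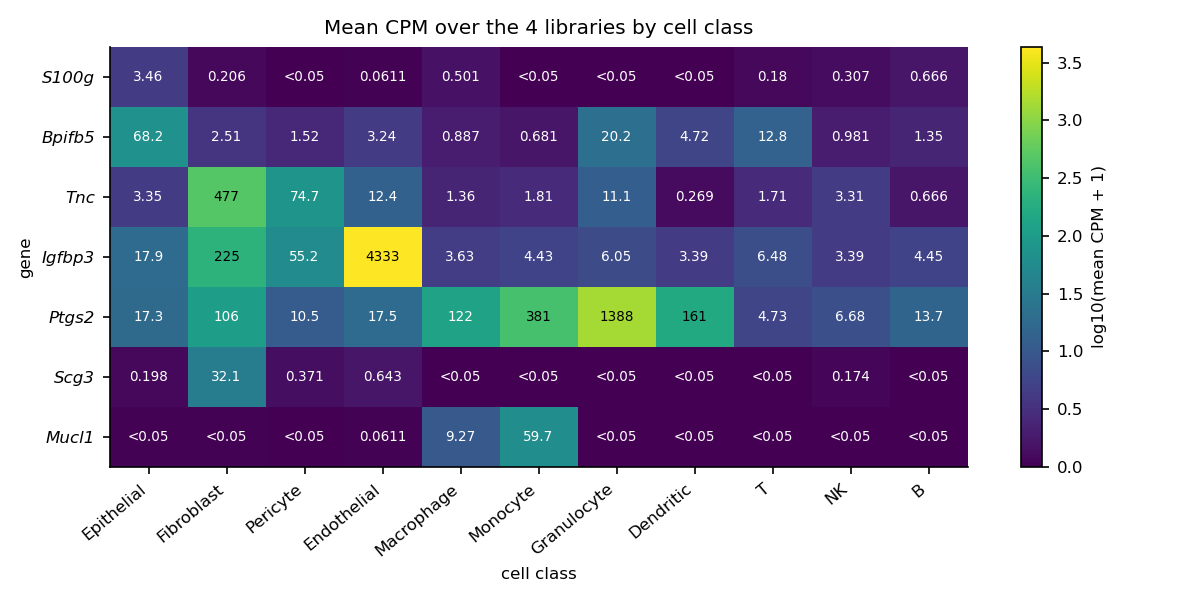
The map gives the mean CPM over the 4 libraries for each gene (lines) in each named cell class (columns), with the color on a log10(CPM + 1) scale. Igfbp3 stands out in endothelial cells, Ptgs2 in granulocytes, and Tnc and Scg3 in fibroblasts.

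The genotypes were compared outside the epithelial class by edgeR's quasi-likelihood test on the summed counts of 2 against 2 libraries with Benjamini-Hochberg adjustment. The earlier epithelial sums that chose the genes may have held other cells than those here, so independence from the choice was not shown. With each library taken as 1 mouse, the p-values of the test measure the spread between libraries. In fibroblasts, 22.4% of the 13133 genes tested had both Cre+ libraries below both Cre- libraries, and 1 gene passed an adjusted p of 0.05, lower in Cre+ (0.00761%). This gene was Spp1, which encodes the matrix protein osteopontin, at 1655, 1178, 35.5 and 27.4 CPM. Spp1 was also a leading gene of epithelial clusters, and no gene passed in fibroblasts with doublets removed. The part of epithelial RNA in its fibroblast values was not tested. The 251, 624, 537 and 125 fibroblasts expressed the 8 fibroblast markers at 41695 to 51041 CPM in sum. Epithelial markers summed to 521, 420, 145 and 681 CPM in them.

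Fibroblasts held 94.5%, 97.8%, 82.0% and 71.0% of the UMIs of Scg3. It was counted at 51.0 and 63.7 CPM in the Cre- libraries and at 6.35 and 7.45 CPM in the Cre+ libraries (309, 758, 100 and 22 UMIs). The groups stood far apart, with a log2 fold change of -3.04 (SE 0.20). Scg3 ranked 2 of 13133 genes by edgeR's p. The adjusted p of 0.0568 from edgeR's quasi-likelihood test with Benjamini-Hochberg adjustment missed the threshold. The adjusted p was 4.50e-17 with DESeq2 and 1.95e-11 with edgeR and no filter on low counts. By edgeR it was 0.0320 without Cre+ replicate 4 and 0.0868 to 0.314 without any other library. The UMIs came from 41, 87, 38 and 13 cells, of which 3, 12, 5 and 3 held at least 50%. Nearly all lay in a fibroblast cluster led by Dpt and Pi16, genes of adventitial fibroblasts, at 97.7, 142, 9.22 and 12.5 CPM. In the fibroblast cluster led by Postn, Eln and Cilp, Scg3 was at 2.96, 1.21, 0.220 and 0 CPM.

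Tnc was counted in fibroblasts at 749 and 692 CPM in Cre- and at 279 and 189 CPM in Cre+, a log2 fold change of -1.56 (SE 0.23). It ranked 23 of 13133 genes by edgeR's p and did not pass the adjustment (adjusted p = 0.371, edgeR's quasi-likelihood test). The adjusted p was 7.32e-07 with DESeq2, 4.16e-06 with edgeR and no filter on low counts, and 0.112 to 0.795 with edgeR and 1 library left out. A UMI was found in 105, 240, 116 and 22 fibroblasts, and 10, 10, 7 and 3 of them held at least 50% of the UMIs. The cluster led by Postn, Eln and Cilp, with 61, 123, 88 and 26 cells, carried most of it, at 1607, 1572, 894 and 614 CPM. There the groups did not overlap, whereas in the cluster led by Dpt and Pi16 they did, at 101, 15.5, 21.8 and 3.97 CPM. Fibroblasts held 89.3%, 91.3%, 96.3% and 73.0% of all Tnc UMIs.

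Of the other genes in fibroblasts, Igfbp3 was at 264, 124, 293 and 219 CPM (log2 fold change 0.46, adjusted p = 0.978 by edgeR's quasi-likelihood test), with overlapping groups. Ptgs2 was at 115, 161, 115 and 33.9 CPM (log2 fold change -0.79, adjusted p = 0.968 by edgeR's quasi-likelihood test). Its lowest Cre- and highest Cre+ library differed by less than their counting intervals.

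Endothelial cells held 71.9%, 80.9%, 64.4% and 82.5% of the Igfbp3 UMIs, and there the order was the reverse of that in the epithelial sums. Igfbp3 was counted at 2796 and 3531 CPM in Cre- and at 4911 and 6095 CPM in Cre+, with a UMI in 178 of 212, 225 of 264, 151 of 164 and 102 of 118 cells. The log2 fold change was 0.84 (SE 0.19). It did not pass the adjustment over 10941 genes (adjusted p = 0.981, edgeR's quasi-likelihood test), while the adjusted p was 0.334 with DESeq2 and 0.00350 with edgeR and no filter on low counts. Of the 10941 genes, 14% had both Cre+ libraries above and 19% both below. Endothelial markers moved the same way, with sums of 6281, 6612, 7828 and 8021 CPM over the 8 listed genes, and their part in the result was not tested. In the deeper endothelial cluster Igfbp3 was at 3271, 4194, 5517 and 6889 CPM. This comparison was added after the data were seen. In the sum of all non-epithelial cells, where the number of endothelial cells and the RNA of each cannot be told apart, the log2 fold change was -0.47 (adjusted p = 1.00 by edgeR's quasi-likelihood test).

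**Figure D5:**
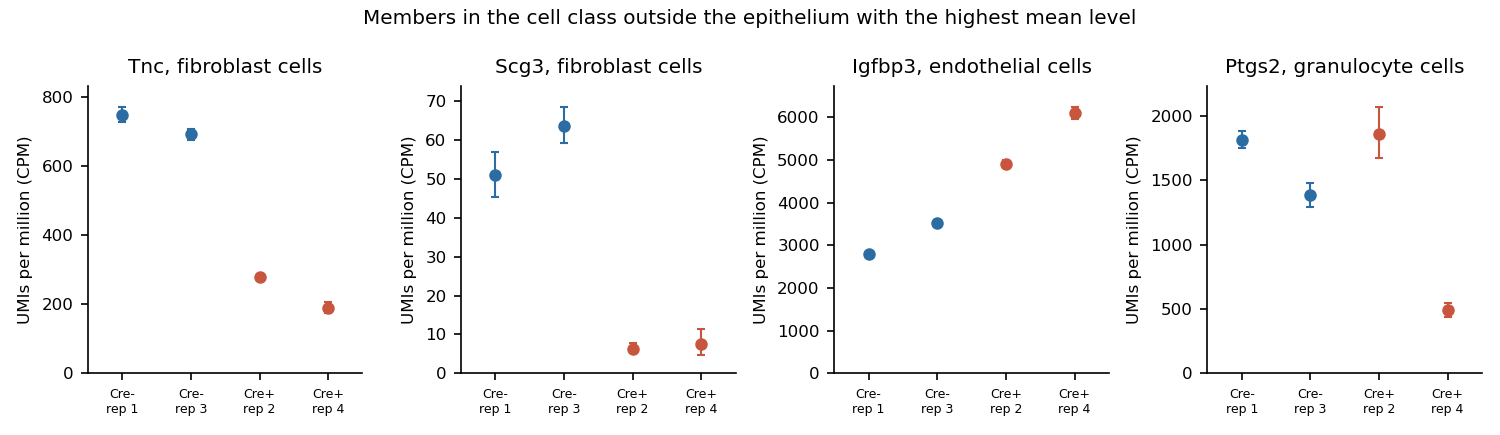
Points give the level of 4 genes in the non-epithelial class where each is highest, 1 point per library, in CPM with exact Poisson 95% intervals. Fibroblast Tnc and Scg3 have both Cre+ points below the Cre- points, endothelial Igfbp3 has both above, and granulocyte Ptgs2 overlaps.

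The highest levels of Ptgs2 were in myeloid cells. In granulocytes, marked by S100a8 and S100a9, it was at 1816, 1382, 1863 and 490 CPM, with a UMI in 233 of 281, 83 of 100, 30 of 35 and 58 of 97 cells. Cre+ replicate 4 was low and the other Cre+ library the highest, so the groups overlapped. Monocytes had 327, 599.5, 323 and 274 CPM, where the nearest Cre- and Cre+ libraries lay within each other's counting intervals. Dendritic cells had 172, 274, 108 and 90.5 CPM and macrophages 77.0, 218, 84.7 and 107 CPM. In macrophages the log2 fold change was -0.51 (adjusted p = 1.00 by edgeR's quasi-likelihood test), where 17.8% of 12867 genes had both Cre+ libraries below and 6.61% both above. Igfbp3, at 2.17, 3.19, 4.80 and 4.37 CPM, was above in both. In endothelial cells Ptgs2 was at 55.6, 12.5, 0.969 and 0.836 CPM, but 167 of the 201 UMIs of Cre- replicate 1 lay in 1 cell.

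Mucl1 was made up by a handful of myeloid cells. Macrophages held 414, 32, 11 and 129 of its UMIs in 6, 6, 4 and 2 cells, and the class named monocytes 1, 619, 139 and 0. Of the latter, 618 of 619 and 139 of 139 lay in a cluster led by Retnla, Ccl6 and Ccl9. That cluster had 7 of 8 macrophage and 3 of 6 monocyte markers. The 8 cells with at least 20 UMIs held 96.0%, 96.0%, 86.1% and 100% of all Mucl1 UMIs of their libraries. The highest cell, of the monocyte class in Cre- replicate 3, held 604 UMIs, which was 2.41% of its own 25036 UMIs. A macrophage of Cre- replicate 1 held 236 UMIs, or 2.09% of its UMIs. These 8 cells had 4 to 8 of 8 macrophage markers, 1 to 3 of 6 monocyte markers and 0 to 2 of 10 epithelial markers. A doublet was called for 1 of them. The groups overlapped in both classes.

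Outside the epithelial class, Bpifb5 was at 150, 84.2, 24.2 and 13.9 CPM in the unnamed cells, close to its epithelial levels. Nearly all of these were a shallow cluster led by Scgb1b27, Wap and Elf5, in which 7 of 10 epithelial markers were detected. Both Cre+ libraries also lay below in macrophages and in fibroblasts. Macrophages had 1.94, 1.09, 0.354 and 0.165 CPM, and fibroblasts 3.13, 5.38, 1.53 and 0 CPM. Bpifb5 was also counted in granulocytes, at 41.5, 27.9, 0 and 11.3 CPM, and in T cells, at 44.6, 6.47, 0 and 0 CPM. These values rest on few cells. In Cre- replicate 1, 11 of 281 granulocytes held 69 UMIs, and 4 T cells held 53 UMIs. In the empty droplets of Cre+ replicate 4, which hold free RNA, it was at 9.23 CPM, and the part of free RNA in these values was not tested. Over all non-epithelial cells, where 22.6% of the 16276 genes tested had both Cre+ libraries below and 4.43% both above, the log2 fold change of Bpifb5 was -2.96 (adjusted p = 1.00 by edgeR's quasi-likelihood test, 0.00493 by DESeq2). Without Cre+ replicate 2, which leaves 1 Cre+ library, many genes passed by edgeR, so that fit does not single out Bpifb5. These sums include the 251, 142, 45 and 23 UMIs of the cluster with epithelial markers, so they are not independent of the epithelial values that chose the gene. Over the named classes alone, without that cluster, the log2 fold change was -3.13 (adjusted p = 1.00 by edgeR's quasi-likelihood test), an alternative chosen after seeing the data. No gene passed edgeR's test in macrophages, in all non-epithelial cells or in endothelial cells, where 262, 377 and 440 genes had an unadjusted p under 0.05 and 11, 19 and 9 passed with DESeq2.

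Of the listed genes of calcium transport and vitamin D response, 9 of 12 could be tested, of the family of Bpifb5 5 of 16, of tenascins and their receptors 10 of 12, of the insulin-like growth factor axis 15 of 17, of prostaglandin synthesis and receptors 16 of 18, of granins and regulated secretion 5 of 14 and of mucins 7 of 13. None passed edgeR's quasi-likelihood test with Benjamini-Hochberg adjustment in either direction, as was so for all 16485 genes (0%), of which 390 had an unadjusted p under 0.05 and 81 passed with DESeq2. The median log2 fold changes of the lists were 0.01, 0.30, 0.07, 0.03, 0.05, -0.27 and -0.83 in that order, against 0.02 over all genes tested. Both Cre+ libraries lay below for 1, 2, 1, 1, 2, 0 and 0 genes of the lists and above for 2, 2, 1, 0, 1, 1 and 1, against 15.3% below and 12.9% above of the 16485 genes tested. The genes named next had the largest changes of their lists among those with a mean of at least 10 CPM. Slco2a1, a prostaglandin transporter, was at 103, 95.4, 72.3 and 31.9 CPM, with both Cre+ libraries below. Igf1r, the receptor for insulin-like growth factors, was at 9.83, 8.24, 5.96 and 44.4 CPM. Vdr, the vitamin D receptor, was at 42.1, 31.3, 32.7 and 26.0 CPM. Itgav, an integrin subunit that binds tenascin-C, was at 42.0, 45.2, 44.6 and 20.4 CPM. Cpe, a processing enzyme of secretory granules, was at 28.4, 29.2, 30.9 and 58.8 CPM, and the mucin Muc4 at 6.73, 0.708, 1.26 and 34.7 CPM. The log2 fold changes were -0.41 (SE 0.24) for the lipopolysaccharide-binding protein gene Lbp, 1.75 (SE 0.93) for the prostaglandin E synthase gene Ptges, -1.10 (SE 1.35) for Stc2, 0.47 (SE 0.54) for Egfr, 0.01 (SE 0.17) for the calcium pump gene Atp2b1, -0.27 (SE 0.57) for Pam and -0.89 (SE 0.60) for Muc1. All of these missed the threshold.

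Across 38 sums of 1 epithelial cluster in 1 library, the genes most like each of the 7 were found by Pearson correlation of log2(CPM + 1). Sums of 1 library share its depth, so the values are a description. Igfbp3 was most like Sparc (r = 0.86), Col1a2 (0.84) and Rnase4 (0.84). Tnc was most like Postn (0.78), Kirrel (0.77) and Col12a1 (0.77). Bpifb5 was most like Glyr1 (0.71), Acss1 (0.70) and Syne4 (0.68), Ptgs2 most like Ccdc50 (0.70), Fn1 (0.69) and Nfatc2 (0.68), and S100g most like Lurap1l (0.70), Chmp4c (0.67) and Aldh1a3 (0.67), a marker of luminal progenitors. The cluster levels of S100g rest in part on single cells, so its correlations follow where those cells fell. For Scg3 and Mucl1, which are sparse, the highest values were 0.56 and 0.56.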

How the data were processed

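Single cells of mammary tumors were captured with the 10x Genomics 3' chemistry in 4 libraries, and each library was taken as 1 mouse. The authors made the deposited UMI counts per gene and barcode with Cell Ranger, version 6.1.2 for 3 libraries and 4 for Cre+ replicate 4 per the labels. The labels name a human build although the gene identifiers are those of mouse, so no coordinate was taken from the files. The first 3 matrices held 7020, 8017 and 7411 barcodes and that of Cre+ replicate 4 all 2582424.

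Barcodes with at least 1000 UMIs and at most 20% mitochondrial UMIs were kept, with 107848230 to 134882211 UMIs per library. Cells were normalized to 10000 UMIs, and 2000 variable genes and 30 components were integrated with an implementation of Harmony written for this work and clustered by Leiden (leidenalg 0.10.2, resolution 1.0). Epithelial cells were clustered again without integration at 0.6. The 7 genes, Frmd8, Esr1 and Pgr were kept out of the clustering. A class needed 3 detected markers, and an epithelial name 4, a minimum set after the clusters were seen. Doublets were kept, and an alternative removed 0.8% per 1000 cells. Counts were summed per library and class and expressed per 1000000 UMIs with exact Poisson intervals, and shares with exact binomial intervals, both covering counting error only. Genotypes were compared with edgeR 4.0.16 (quasi-likelihood, TMM, filterByExpr, Benjamini-Hochberg adjustment), with DESeq2 1.42.0 as an alternative. On simulated counts with 100 genes changed by a log2 fold of 3, edgeR recovered 62% in epithelial, 88% in fibroblast, 85% in macrophage, 68% in non-epithelial and 87% in endothelial sums. Of 100 genes changed by a log2 fold of 1.5 it recovered 3%, 56%, 34%, 13% and 37%. It also made 10, 15, 18, 9 and 17 false calls in the same order.

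The 7 genes and the gene lists were chosen with earlier results of these data known. Beside the 7, the text names up to 2 genes per list with the largest change among those with a mean of at least 10 CPM, and the 3 genes most like each of the 7. Genes named for a cluster are among its 10 leading genes.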

Additional observations from a re-analysis of the deposited data

Results flagged for a closer look

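Igfbp3 stood in the opposite order in endothelial and epithelial cells. The mean Cre- level was 0.575 times the mean Cre+ level in endothelial cells, with both Cre+ libraries above, and 2.37 times in epithelial cells, with both below. The epithelial order was lost without the basal-like cluster 13, whose fibroblast markers summed to as much as or more than its epithelial markers. It was also lost without integration, under the limits read from the study, and without the 5% of cells with the most UMIs. An opposite order in the 2 classes is thus not established, and the difference between them was not tested.

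The droplets of Cre+ replicate 4 with at most 100 UMIs, which no comparison used, held Igfbp3 at 73.1 CPM (95% interval 65.7 to 81.0), Ptgs2 at 38.9 CPM (33.7 to 44.8) and Tnc at 3.81 CPM (2.30 to 5.96). The epithelial cells of that library held 7.70, 4.27 and 0.792 CPM. Bpifb5 was at 9.23 CPM in these droplets, below its 20.6 CPM in the epithelial cells, and Scg3 and Mucl1 were not counted in their 4981956 UMIs. The files of the other libraries list called cells, so their droplets were not analysed here.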

How the results depend on the processing

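Of the 7 genes, 5 lay below in both Cre+ libraries as reported, 4 under the limits read from the study, 4 without integration, and 6 with cells weighted equally, without Cre+ replicate 2 and without Cre+ replicate 4. By the share of thinned cells 3 lay below. Bpifb5, Tnc and Ptgs2 were among them in each of these. The log2 ratio of epithelial Igfbp3 was 0.25 under the limits read from the study, where Cre+ replicate 4 gave 7244 epithelial barcodes against 3093 as reported. Without the 5% of cells with the most UMIs, 2 genes lay below, Bpifb5 and Ptgs2, and Tnc did not. That cut took every Ptgs2 carrier of Cre+ replicate 4 and every Tnc carrier of all libraries but Cre- replicate 3. For Ptgs2 and Tnc it thus cannot show whether few cells made the difference. The number of genes called by edgeR in epithelial cells was 0 to 2 with 1 library left out and 81 with DESeq2. In fibroblasts it was 0 to 4 with 1 library left out, 318 with no filter on low counts, 82 with DESeq2, and 0 under the study's limits, with doublets removed and in the cluster led by Dpt and Pi16 alone. In macrophages it was 0 to 1480 with 1 library left out (1480 without Cre+ replicate 2 and 80 without Cre+ replicate 4), 13 with no filter and 11 with DESeq2. In all non-epithelial cells it was 0 to 2630 (2630 without Cre+ replicate 2 and 126 without Cre+ replicate 4) and 19 with DESeq2, and in endothelial cells 1 to 42, 95 with no filter and 9 with DESeq2. A library left alone in its group is assumed there to vary like the other group. With 1 library left out, the log2 fold change of Igfbp3 in fibroblasts ranged from -0.0014 (without Cre- replicate 3) to 1.11, and that of Ptgs2 in macrophages from -1.09 to 0.48 (without Cre- replicate 3). The cause of these changes was not tested. The endothelial comparison and the alternatives on shallow or unnamed clusters and single fibroblast clusters were chosen after seeing the data. No paired analysis was possible because the groups share no replicate number. With 2 libraries per group and few epithelial cells holding a gene, small differences could not be detected. Large ones could be missed too. On simulated counts, edgeR recovered 3% of genes changed by a log2 fold of 1.5 in epithelial and 13% in non-epithelial sums. For a log2 fold of 3 it recovered 62% and 68%.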
